A study of Homo sapiens with 12 samples.

Results

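The genes described here are 50 genes of the extracellular matrix, of cell adhesion and of the mesenchymal state: collagens, laminin chains, matrix glycoproteins, collagen cross-linking enzymes, matrix metalloproteinases and their inhibitors, integrin subunits, the hyaluronan receptor CD44 and mesenchymal structural genes and transcription factors. They were chosen by name, and a probe of the array was given to a gene when the RefSeq accession printed for that probe belonged to it. Of the 50 genes, 49 had at least 1 probe, 71 probes in all, among 41000 gene probes that named 16557 genes. The probes of 37 genes (48 probes) were bright enough for a test, and those of 12 genes were not. For COL13A1, a transmembrane collagen, no probe was matched in this way.

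The 12 one-colour arrays held RNA of H358 cells, a human lung adenocarcinoma line of epithelial character, collected at 24 h. Of these, 6 arrays were labelled control, with none entered as treatment, and 6 were labelled SRSF2 over-expression. SRSF2 is a splicing factor of the serine/arginine-rich family. The protocol described 1 inducible clone, H358/Tet-On/SRSF2, whose SRSF2 copy sits behind a Tet-responsive promoter and was induced with 1 µg/mL doxycycline for 24 h. Whether the control cells were the same clone without induction, and whether they received doxycycline, was not given in the sources used here. The 12 arrays lay on 3 slides, each with 2 control arrays and 2 arrays labelled SRSF2 over-expression (called SRSF2 arrays from here on). According to the study's notes each labeling was hybridized to a pair of arrays, so the p-values measure a spread that was in part technical.

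The matrix that surrounds cells has a basement membrane, a sheet of laminins, collagen IV and heparan sulphate proteoglycans under epithelia, and an interstitial part of fibrillar collagens, fibronectin and other glycoproteins. Cells bind it through integrins, pairs of an alpha and a beta subunit that tie the matrix to the actin cytoskeleton at focal adhesions. Lysyl oxidases and lysyl hydroxylases take part in the cross-linking of collagen, metalloproteinases cut matrix proteins and TIMPs inhibit these proteases. In carcinoma cells the transcription factors SNAI1, SNAI2, TWIST1, ZEB1 and ZEB2 can turn on a mesenchymal state, of which vimentin and N-cadherin are the usual markers.

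Levels are given as scaled log2 signals, from which the 75th percentile of each array had been subtracted, so that 0 is the level of that percentile, and a difference is the SRSF2 arrays minus the control arrays on that log2 scale. Differences were tested with limma over 24330 probes, and a probe was called at a Benjamini-Hochberg adjusted p of at most 0.05. Spots that the files' own test put well above background made up 54.2% to 67.8% on control arrays and 55.2% to 68.0% on SRSF2 arrays. The probe of SRSF2 itself went against the labels: its level was 3.92 ± 0.10 on control arrays and 2.47 ± 0.10 on SRSF2 arrays (SD, n = 6 each), a difference of -1.46. Where this probe lies relative to the introduced SRSF2 copy was not given in the sources used here, so each direction below holds for arrays as labelled. Of the fibroblast markers, COL1A2, COL3A1 and PDGFRB were well above background on 0 of 12 arrays and FAP was on 10, and CDH5 of endothelium and PTPRC of leukocytes were on 0. Single probes of PECAM1, VWF, CD14 and CD3E, markers of endothelium and leukocytes, passed the same test on 10 to 12 arrays. All 11 probes of the 8 epithelial markers were tested, 3 were called up and 2 down (29.7% and 28.0% of all tested probes). KRT7 was lower by -1.32 and KRT19 by -0.50, CLDN4 was higher by 0.37, EPCAM by 0.21 and 1 of 2 KRT8 probes by 0.18, and CDH1, ESRP1 and KRT18 were not called.

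Most called matrix, adhesion and mesenchymal genes were lower on SRSF2 arrays, by small amounts. In RNA of whole cultures, fewer cells that express a gene and less of its RNA per cell cannot be told apart. Of the 48 tested probes, 20 were called down and 8 up. These 41.7% and 16.7% stood beside 28.0% down and 29.7% up among all tested probes. In either direction, 28 probes of 23 genes were called, 58.3% against 57.7% of all tested probes, so the share called was near that of the array as a whole. The median difference of the 48 probes was -0.10 and that of all probes 0.01, with a range from -1.12 to 0.76. Only 1 probe, of ITGA2, was called with a change of at least 2-fold (2.08% of the probes, against 7.00% of all tested probes in either direction and 3.31% downward), and 19 of the 28 called probes differed by under 0.5. The counts, shares and range given here leave out COL13A1, for which no probe was matched. Its 2 probes, described below without a test, differed by more than any of the 48, at -2.33 and -2.06. The control and SRSF2 arrays did not overlap for 19 of the 48 probes (39.6%, against 40.2% of all tested probes). All 28 called probes had the same sign on each of the 3 slides, as did 98.9% of all called probes. The balance of directions depended on the scaling: with arrays scaled on the spike-in probes the difference of all probes shifted to a median of 0.22, the members had a median of 0.11, and 2 member probes were called down and 5 up. This scaling moves all probes of an array by 1 number, so the members' distance from all probes (-0.11) cannot change with it. When the paired arrays that a condition had on each slide were averaged, 15 of the 28 calls were kept. The 13 lost were those of ITGA3, ITGA6, ITGAV, ITGB4, ITGB6, SNAI2, MMP1, TIMP2, both COL6A2 probes and 1 probe each of COL18A1, FN1 (A_24_P119745) and VIM (A_23_P161194). The averaged fit had no term for the slide, although each slide held both conditions, so it left that pairing unused. With slide as a term of the fit, and the paired arrays taken as separate, all 28 calls were kept.

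**Figure D1:**
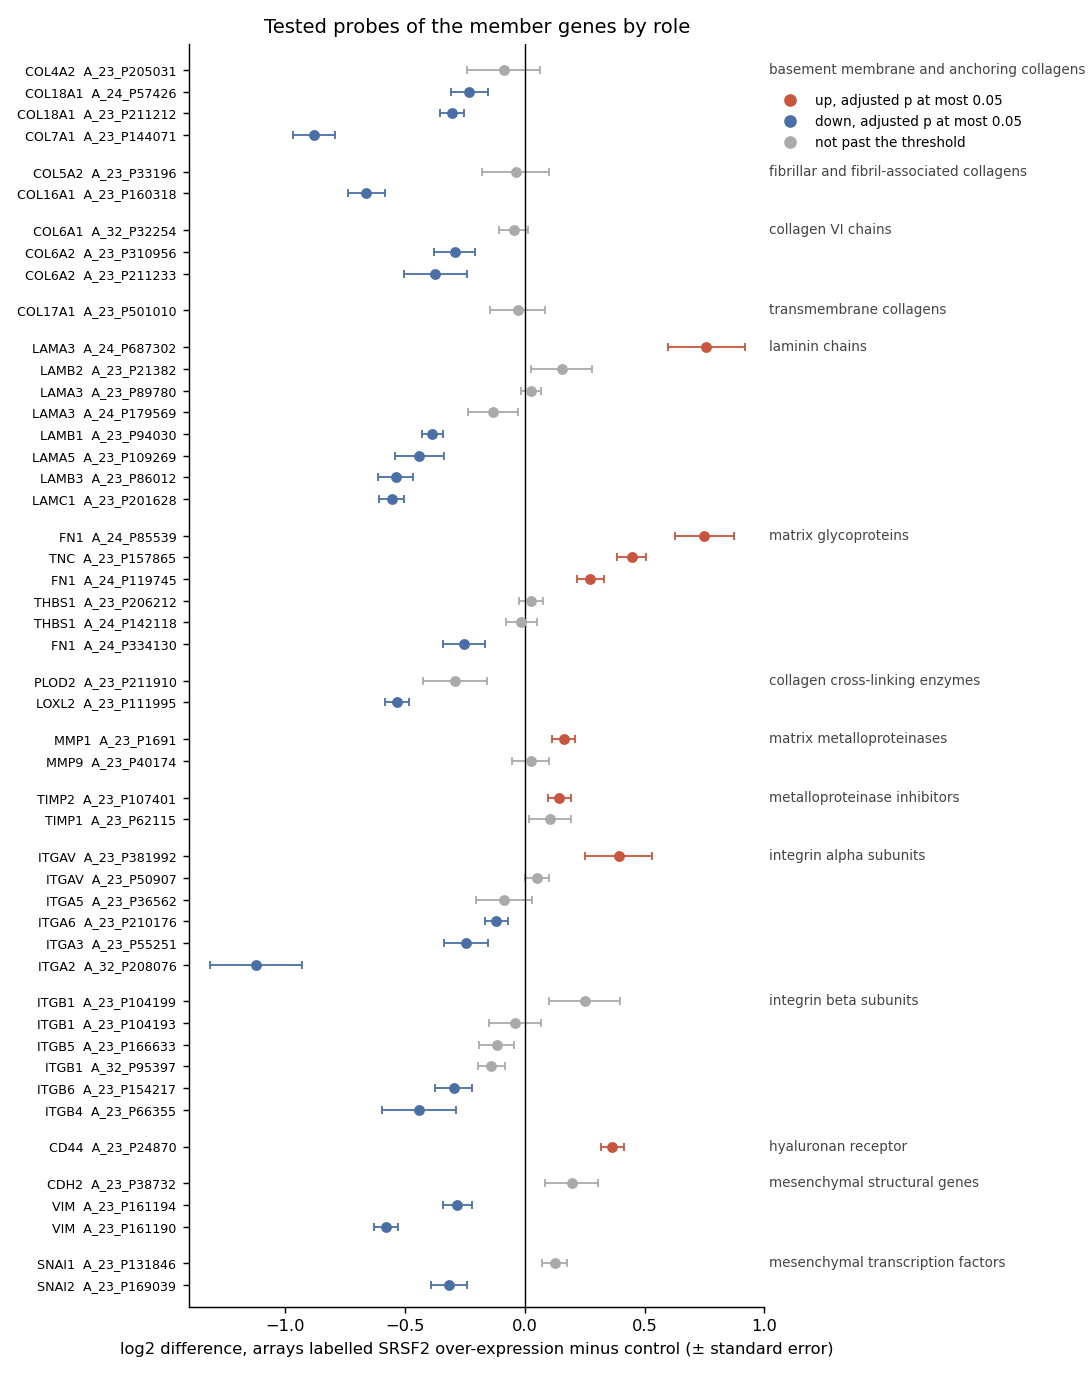
Difference of each of the 48 tested probes (SRSF2 arrays minus control arrays, log2, horizontal axis), grouped by role; bars are the standard errors from limma and colours mark the call. Collagens and most laminin chains lie left of 0, TNC, CD44 and 2 of 3 FN1 probes lie right of it, and ITGA2 at -1.12 lies furthest out.

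ITGA2, the alpha 2 subunit that pairs with beta 1 into a collagen receptor, had the largest difference among the 48 tested probes. On probe A_32_P208076 control arrays ranged from -1.35 to -0.79 with a median of -1.01, and SRSF2 arrays from -2.57 to -1.43 with a median of -2.37. The conditions did not overlap. The difference was -1.12 ± 0.19 (SE), 2.18-fold lower, with an adjusted p of 0.00026. A two-sided permutation test over single arrays gave its smallest possible p of 0.00216. That test took the arrays as independent, although they were paired by labeling and shared slides, so its p is too small as a measure of support. With the 2 arrays of a slide averaged, limma gave an adjusted p of 0.0131. The difference was smallest on slide 2, at -0.70. Leaving out slide 1 brought it to -0.97, still called (adjusted p 0.0157), and with normexp background correction it was -0.86 and no longer called (adjusted p 0.0625). The other 3 ITGA2 probes were well above background on at most 2 of 6 arrays of a condition and were not tested.

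Among the other tested integrin subunits the differences were smaller. With ITGA2 counted, 5 of 12 integrin probes were called down and 1 up (28.0% and 29.7% of all tested probes). ITGB4, which with ITGA6 forms the laminin receptor of hemidesmosomes, differed by -0.44 (adjusted p 0.0274). Its control replicate 2 was at 2.93. The other 5 control arrays lay between 3.67 and 3.92, above the SRSF2 arrays at 3.06 to 3.44. The ITGB4 call was lost without slide 2 (adjusted p 0.0966) or slide 3 (0.278). ITGB6, an epithelial partner of alpha v, differed by -0.30 (adjusted p 0.00459), and its conditions did not overlap. ITGA3, the laminin-332 receptor alpha subunit, differed by -0.25 (adjusted p 0.0376). ITGA6 differed by -0.12 (adjusted p 0.0461), and this direction reversed to 0.090 with spike-in scaling. When the 2 arrays of a slide were averaged, the calls of ITGB4 (adjusted p 0.0972), ITGB6 (0.0764), ITGA3 (0.203) and ITGA6 (0.324) were lost.

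The 2 probes of ITGAV, the alpha v subunit of fibronectin and vitronectin receptors, gave different calls. The dim probe A_23_P381992 was up by 0.39 (adjusted p 0.0274), and it turned to -0.28 with normexp background correction. The bright probe A_23_P50907 differed by 0.05 (adjusted p 0.42). The ratio of both probes changed by 0.34, which was not called (adjusted p 0.071). None of the 3 probes of ITGB1, the common beta subunit of matrix receptors, was called, with differences of -0.14, -0.04 and 0.25. ITGB5 (-0.12) and ITGA5 (-0.09), the alpha chain of the main fibronectin receptor, were not called either.

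The collagens that were called were all lower on SRSF2 arrays, 6 of 10 tested probes from 4 of the 8 tested genes (28.0% of all tested probes were called down). COL7A1 encodes the anchoring fibrils that fasten the basement membrane to the tissue below. Its control arrays ranged from 0.70 to 1.01 (median 0.93) and its SRSF2 arrays from -0.16 to 0.23 (median -0.04), without overlap. The difference was -0.88 ± 0.09 (SE), 1.84-fold lower, with an adjusted p of 2.28e-06. It was called under all 17 alternatives, among them spike-in scaling (-0.67) and normexp (-0.71). COL16A1, a collagen associated with fibrils and hemidesmosomes, ranged from -0.51 to -0.31 on control arrays (median -0.46) and from -1.25 to -0.87 on SRSF2 arrays (median -1.18). These ranges were also apart, and the difference was -0.66 ± 0.08 (SE, adjusted p 1.04e-05).

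COL18A1, a basement membrane collagen whose end fragment is endostatin, was lower on both probes, by -0.30 (adjusted p 0.000163) and -0.23 (0.0219). Both probes of COL6A2, a chain of the beaded filaments of collagen VI, were lower by -0.37 (adjusted p 0.0261) and -0.29 (0.011). Its partner chain COL6A1 differed by -0.05 on its tested probe (adjusted p 0.525). Calls of the dimmer COL18A1 probe and of both COL6A2 probes were lost without slide 3, with adjusted p of 0.238, 0.222 and 0.201. Not called were COL4A2, the basement membrane network chain (-0.09), COL5A2, a chain that sets fibril width (-0.04), and COL17A1, the hemidesmosome collagen (-0.03). Probes of COL4A1, COL5A1 and COL12A1 were too dim for the test.

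The 2 COL13A1 probes that the study's supplementary list names carry an accession the gene table no longer holds. That list was chosen on these arrays, so their values are given as a description without a test. On A_23_P1331 control arrays ranged from -0.76 to -0.49 and SRSF2 arrays from -3.27 to -2.80, a difference of -2.33. On A_24_P90005 the difference was -2.06. The conditions were apart on both probes.

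**Figure D2:**
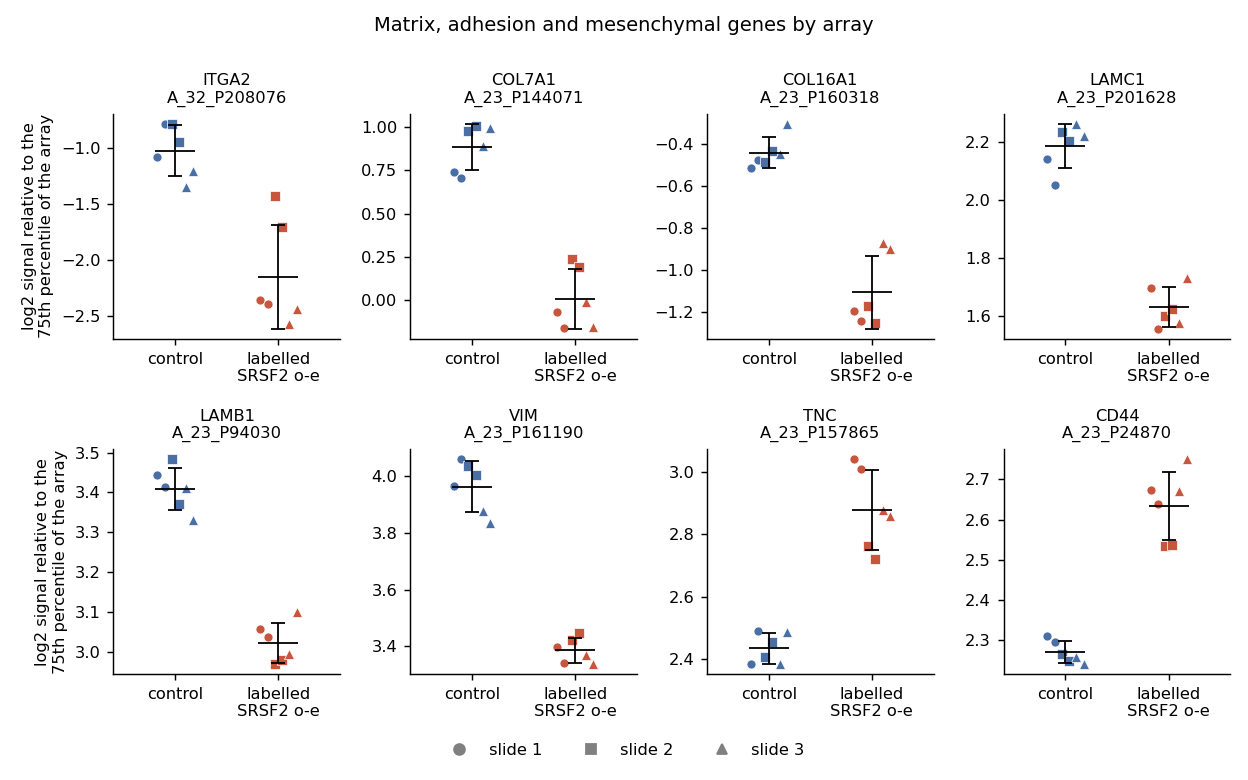
Scaled log2 signal (vertical axis, 0 is the 75th percentile of each array) for 8 probes of 8 genes, each point 1 array, shaped by slide; the bars show the mean and SD of 6 arrays. In each panel the control and SRSF2 arrays do not overlap: 6 genes lie lower on SRSF2 arrays (ITGA2 by -1.12, COL7A1 by -0.88) and TNC and CD44 lie higher (by 0.45 and 0.37).

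Of the laminins, trimers of an alpha, a beta and a gamma chain, 4 of 6 tested genes had a probe called down. By probe, 4 of 8 were called down and 1 up (28.0% and 29.7% of all tested probes). LAMC1, the gamma 1 chain shared by most laminins, ranged from 2.05 to 2.26 on control arrays (median 2.21) and from 1.55 to 1.73 on SRSF2 arrays (median 1.61). The difference was -0.56 ± 0.05 (SE, adjusted p 1.25e-06) without overlap. LAMB3, the beta chain of the epithelial laminin-332, was lower by -0.54 (adjusted p 6.06e-05), measured on 5 SRSF2 arrays because 1 spot was set aside as an outlier. LAMA5, the alpha chain of laminin-511, was lower by -0.44 (adjusted p 0.00295), measured on 5 control arrays for the same reason. LAMB1, the beta 1 chain, ranged from 3.33 to 3.48 on control arrays and from 2.97 to 3.1 on SRSF2 arrays, a difference of -0.39 (adjusted p 8.2e-06). The conditions did not overlap for any of these chains. With spike-in scaling and with normexp the calls of all these chains were lost. LAMB2, beta 2, differed by 0.15 and was not called (adjusted p 0.324).

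LAMA3, the alpha chain of laminin-332, gave unlike values on its 3 probes. A_24_P687302 ranged from -3.12 to -2.23 on control arrays (median -2.51) and from -2.09 to -1.39 on SRSF2 arrays (median -1.88), up by 0.76 ± 0.16 (SE, adjusted p 0.00134). The conditions were apart, and the rise was 1.26 on slide 1 against 0.44 and 0.58 on the other slides. A_23_P89780, whose accession is the same long transcript, differed by 0.03 (adjusted p 0.591), and A_24_P179569, assigned to the short transcript, by -0.13 (0.299). The ratio of each of these to A_24_P687302 changed by -0.73 (adjusted p 0.00237) and -0.89 (0.00526). With normexp background correction these changes were -0.07 (adjusted p 0.955) and -0.65 (0.259), and the rise of A_24_P687302 was not called either (0.586). Control replicate 2 was the lowest array on A_24_P687302, at -3.12 with the next at -2.53.

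The matrix glycoproteins held 3 of the 8 probes called up, among 6 tested probes of their own (29.7% of all tested probes were called up). TNC, tenascin C, a matricellular protein of wounds and tumour stroma, ranged from 2.38 to 2.49 on control arrays (median 2.43) and from 2.72 to 3.04 on SRSF2 arrays (median 2.87). It was up by 0.45 ± 0.06 (SE, adjusted p 4.35e-05) without overlap. FN1, fibronectin, was the only member with calls in both directions. A_24_P85539 rose by 0.75 ± 0.12 (SE, adjusted p 0.000185), from a range of -0.57 to -0.07 to one of 0.07 to 0.63, and A_24_P119745 rose by 0.27 ± 0.06 (SE, adjusted p 0.00119). Both probes carry the accession of one long fibronectin transcript. A_24_P334130, whose accession is a short truncated fibronectin transcript, was lower by -0.25 ± 0.09 (SE, adjusted p 0.0238) with overlapping conditions, and this call was lost without slide 1 (adjusted p 0.168) or slide 3 (0.15) and under the replicate block (0.0652).

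The probes of a gene can be set against each other only as a change of their ratio, which no scaling of an array alters. Of 14 pairs of tested probes of a member gene, 7 changed their ratio (against 40.0% of all 6315 pairs on the array). The pairs were 3 of FN1, 2 of LAMA3, 1 of ITGB1 and 1 of VIM. The largest change was that of A_24_P334130 to A_24_P85539 of FN1, at -1.0 ± 0.16 (SE, adjusted p 0.000253), just over 2-fold (7.14% of the pairs, against 7.87% of all pairs). It was -0.89 without slide 1 and -0.97 without control replicate 2. With normexp it was -1.10 and not called (adjusted p 0.289), and of all these pairs only that of VIM was still called (0.0419). The 2 FN1 probes of the long transcript also differed from each other, by -0.48 (adjusted p 0.00146). The VIM pair changed by -0.30 (adjusted p 0.00139) and the ITGB1 pair A_23_P104193 to A_23_P104199 by -0.29 (0.0215), and both calls were lost when the 2 arrays of a slide were averaged (adjusted p 0.0898 and 0.167). THBS1, thrombospondin 1, had no difference called on its 2 probes (0.03 and -0.01), nor on their ratio. SPARC, a collagen-binding glycoprotein, was too dim for the test.

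**Figure D3:**
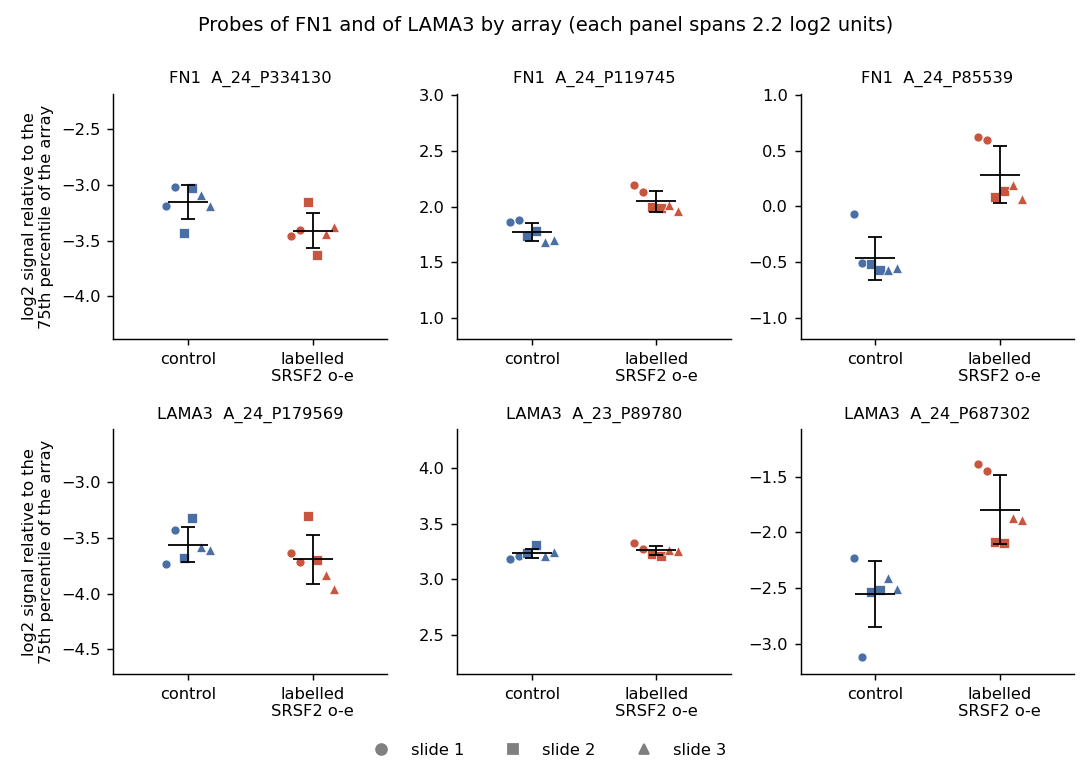
Scaled log2 signal (vertical axis, 0 is the 75th percentile of each array) for the 3 probes of FN1 (top) and of LAMA3 (bottom), each point 1 array, shaped by slide, with mean and SD; every panel spans the same number of log2 units. A_24_P85539 of FN1 and A_24_P687302 of LAMA3 lie higher on SRSF2 arrays (by 0.75 and 0.76), while the other LAMA3 probes overlap between conditions.

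LOXL2, a lysyl oxidase that cross-links collagen and elastin, ranged from 3.76 to 3.85 on control arrays (median 3.79) and from 3.15 to 3.37 on SRSF2 arrays (median 3.27). It was lower by -0.53 ± 0.05 (SE, adjusted p 1.54e-06), and the conditions were apart. The LOXL2 call was lost with spike-in scaling and with normexp. PLOD2, the lysyl hydroxylase of collagen telopeptides, differed by -0.29 and was not called (adjusted p 0.0799), though it was lower on each slide. LOX was well above background on 0 arrays. Differences of the metalloproteinases and inhibitors were small. MMP1, interstitial collagenase, was up by 0.16 (adjusted p 0.0109), and TIMP2 by 0.14 (adjusted p 0.0205). MMP9, gelatinase B, differed by 0.02, and TIMP1 by 0.11 (adjusted p 0.321). MMP2, MMP10, MMP14 and TIMP3 were too dim for the test. MMP14 was well above background on 0 control and 2 SRSF2 arrays, and it passed 2-fold (1.13, adjusted p 0.0335) when the filter on dim probes was left out.

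CD44, the hyaluronan receptor, ranged from 2.24 to 2.31 on control arrays (median 2.26) and from 2.53 to 2.75 on SRSF2 arrays (median 2.66). It was up by 0.37 ± 0.05 (SE, adjusted p 2.7e-05) without overlap. Vimentin, the mesenchymal intermediate filament, went the other way on both of its probes. VIM A_23_P161190 ranged from 3.84 to 4.06 on control arrays (median 3.98) and from 3.34 to 3.45 on SRSF2 arrays (median 3.38), lower by -0.58 ± 0.05 (SE, adjusted p 7.51e-07). VIM A_23_P161194 was lower by -0.28 (adjusted p 0.00172). On each VIM probe the conditions were apart. SNAI2, a repressor of epithelial genes, was lower by -0.32 (adjusted p 0.0028), also without overlap. Both VIM calls and that of SNAI2 were lost with spike-in scaling and with normexp. Averaging the 2 arrays of a slide left VIM A_23_P161190 called (adjusted p 0.00305) but not VIM A_23_P161194 (0.0549) or SNAI2 (0.0691). The changes of epithelial markers given above, such as KRT7, stood beside these, and their part was not tested. SNAI1 differed by 0.12 (adjusted p 0.0649) and CDH2, N-cadherin, by 0.20 (adjusted p 0.146). TWIST1, ZEB1 and ZEB2, the other transcription factors of this group, were too dim for the test.

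The stretch before the transcription start is shown for 4 members, so that the letters near the start can be read beside the values. They are the genes of the lowest and second lowest differences among the 48 tested probes and 2 with a probe called up. Of the latter, FN1 also had a probe called down. The sequences are from RefSeq, build GRCh38.p14, 250 bases before the start, 5′ to 3′ on the strand of the gene. ITGA2 lies at chr5:52989102-52989351 (plus strand), COL7A1 at chr3:48595330-48595579 (minus), TNC at chr9:115118158-115118407 (minus) and FN1 at chr2:215436069-215436318 (minus). Capitals mark matches, on either strand, to GGGCGG (the GC box), TGANTCA (the AP-1 site) or CACCTG (an E-box of the kind SNAI and ZEB factors bind).
ITGA2: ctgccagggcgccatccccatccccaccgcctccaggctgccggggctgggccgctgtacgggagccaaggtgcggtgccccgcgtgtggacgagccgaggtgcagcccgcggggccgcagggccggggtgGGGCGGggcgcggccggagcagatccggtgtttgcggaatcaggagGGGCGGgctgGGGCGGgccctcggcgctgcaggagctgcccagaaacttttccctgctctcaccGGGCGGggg
COL7A1: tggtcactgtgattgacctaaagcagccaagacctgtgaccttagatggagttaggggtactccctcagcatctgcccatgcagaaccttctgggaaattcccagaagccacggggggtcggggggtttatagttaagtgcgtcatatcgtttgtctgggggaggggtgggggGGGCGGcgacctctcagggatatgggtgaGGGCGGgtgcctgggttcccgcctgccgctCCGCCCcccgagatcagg
TNC: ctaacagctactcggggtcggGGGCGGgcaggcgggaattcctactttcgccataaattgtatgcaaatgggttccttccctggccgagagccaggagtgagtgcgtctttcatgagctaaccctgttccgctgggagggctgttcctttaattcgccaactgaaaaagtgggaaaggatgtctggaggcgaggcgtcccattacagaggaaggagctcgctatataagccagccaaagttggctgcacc
FN1: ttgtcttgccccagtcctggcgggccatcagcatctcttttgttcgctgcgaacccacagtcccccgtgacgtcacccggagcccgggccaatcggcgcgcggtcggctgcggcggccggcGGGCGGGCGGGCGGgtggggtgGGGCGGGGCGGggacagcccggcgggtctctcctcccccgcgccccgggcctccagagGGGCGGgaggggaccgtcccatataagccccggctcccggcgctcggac
The matches in these 4 stretches were GC boxes, 4 in ITGA2, 3 in COL7A1, 1 in TNC and 6 in FN1, where 3 overlapped the one before. Of 38 members found in the promoter table, 30 held a GC box (78.9%, against 42.6% of 35116 promoters of all gene types), 2 an AP-1 site (5.26%, against 6.57%) and 7 the E-box (18.4%, against 17.5%). The background promoters were not matched to the members by gene type, so the larger share of GC boxes cannot be read as a trait of the members. A match is a stretch of letters and was not tested for binding.

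Other genes of the same pathways were counted from lists chosen by name. The count of each list stands beside 28.0% called down and 29.7% called up among all tested probes, 57.7% in either direction. Of 21 tested probes of focal adhesion genes, which link integrins to actin, 12 were called down and 1 up, with a median difference of -0.30. TNS3, a tensin, was lower by -0.95 and -0.86 on 2 probes, and ACTN1, alpha-actinin 1, by -0.76 and -0.74. The TNS3 probe at -0.95 was well above background on 6 control and 4 SRSF2 arrays, and was tested only through the former. Called changes were mixed for the other collagen-modifying enzymes, 7 up and 5 down of 13 tested probes. LOXL1 was lower by -0.94 and P3H1, a prolyl 3-hydroxylase, by -0.60, while CRTAP, the partner of that hydroxylase, was higher on all 3 probes, by 0.45 to 0.91.

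Of 12 tested probes of other matricellular genes and glycoproteins, 6 were up and 0 down (29.7% and 28.0% of all tested probes). CCN1 (up to 0.51), ECM1 (0.61) and SPP1, osteopontin (0.46), were the 3 genes of largest change. Among other proteases and inhibitors 6 of 14 tested probes were up and 1 down: PLAUR, the urokinase receptor, differed by 0.43, MMP13 by 0.34 and PLAU, urokinase, by -0.39. Only 5 of 27 probes of the other collagens could be tested, and COL8A1 was the one called (-0.77). Of the other laminin and basement membrane genes, LAMA2 was higher by 0.78, the laminin receptor DAG1 by 0.55 and 0.35, and AGRN lower by -0.25 on its called probe. The other AGRN probes differed by -0.16 and 0.10 and were not called. ITGB8 (0.54) and ITGA1 (0.38) were higher and ITGB7 (-0.37) lower among 8 tested probes of other integrins. ITGB8 was well above background on 2 control and 5 SRSF2 arrays and was tested only through the latter. Of the other mesenchymal genes 3 probes were up and 2 down of 12: smooth muscle actin ACTA2 differed by 0.83, FAP by 0.82 and CDH11, a mesenchymal cadherin, by -0.70. ACTA2 was well above background on 3 of 6 control arrays and on all SRSF2 arrays, and was tested only through the latter. FAP was the only fibroblast marker with a tested probe, and the summed linear signal of these markers ranged from 0.0836 to 0.139 of the 75th percentile on control arrays and from 0.12 to 0.179 on SRSF2 arrays; its part in the results above was not tested.

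**Figure D4:**
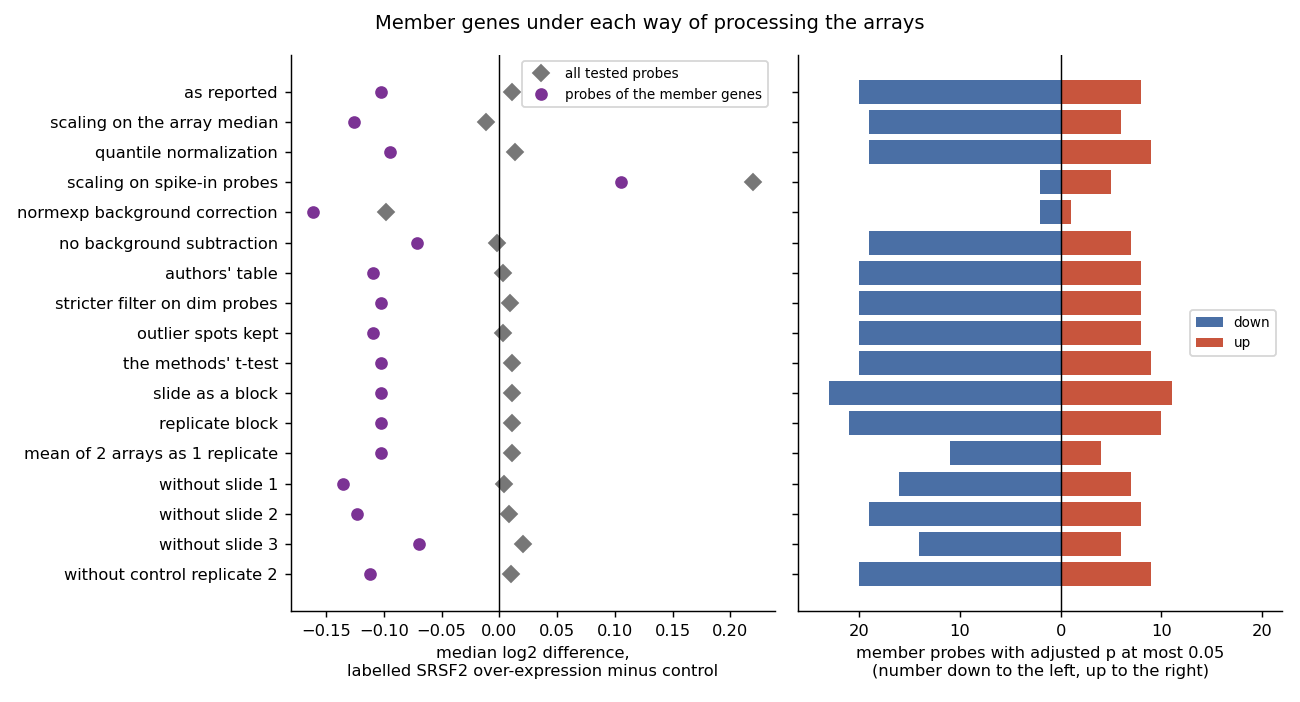
Left, median log2 difference (SRSF2 arrays minus control arrays) of the members' tested probes and of all tested probes under each way of processing that tested the same 48 member probes. All tested probes numbered 23544 with the stricter filter, 24331 in the authors' table and 24330 otherwise. Right, the number of member probes called down and up. The members' median lies left of that of all probes in every row, and with spike-in scaling both medians lie right of 0.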

How the data were processed

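RNA of H358 cells was hybridized by the authors to 12 one-colour Agilent 44 k arrays (6 control, 6 labelled SRSF2 over-expression) and scanned with Feature Extraction 10.7.3.1, per the file headers. The deposited intensity is that program's background-subtracted processed signal; the authors' deposited log2 table equals log2 of it after each array's 75th percentile was subtracted and each probe was centred on its median (24174 of 24331 probes within 0.01 on all arrays).

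From the intensity, the log2 value minus the array's 75th percentile over gene probes was computed, outlier spots were left out and spots of a probe averaged. Probes with at most 25% missing values and with a signal well above background on 5 or more of the 6 arrays of a condition were tested (24330) with limma 3.58.1 in R 4.3.3, with Benjamini-Hochberg adjustment over all tested probes. The script was tested on simulated data. Files were read with Python 3.11.15, numpy 2.4.6 and pandas 2.3.3, and figures drawn with matplotlib 3.10.9. The number of arrays limits the precision, and 0 gene spots were saturated.

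Probes were named by RefSeq accession through the RefSeq gene table (GRCh38.p14): 23958 of 25868 probes with such an accession were named. Probe sequences and positions were not used here. Genes were counted by probe and, as an alternative, by their brightest probe. Named in the text are all members, with values for those called, and from each other list the 3 genes of largest called change, of which 1 is not reported here. The members and lists were chosen with earlier results of these data known.

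Replicate numbers pair arrays through the slide they share. Deviations from the condition means correlated at 0.28 to 0.64 for the 6 pairs of the same number, at 0.33 to 0.65 for the other number of the same slide and at -0.48 to -0.05 for arrays of different slides. Numbers 1 and 2, 3 and 4, and 5 and 6 shared a slide, per the file headers.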

Additional observations from a re-analysis of the deposited data

Results flagged for a closer look

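In 7 of 94 groups of 6 arrays the highest or lowest array of a tested member probe stood apart from the other 5. About 1 group in 20 does so by chance. Control replicate 2 was the low array in 4 of them: ITGB4 at 2.93 (nearest array 3.67), LAMB2 at 2.74 (3.21), COL6A1 A_32_P32254 at 2.74 (2.94) and LAMA3 A_24_P687302 at -3.12 (-2.53). Control replicate 1 was the high array for FN1 A_24_P85539, at -0.072 against -0.50 for the nearest. SRSF2 replicate 1 was high for COL4A2, at -2.87 against -3.47, and SRSF2 replicate 4 for COL5A2 A_23_P33196, at -2.78 against -3.36. Over 23740 probes control replicate 2 also had the widest spread about the median of its condition (SD 0.336, against 0.162 to 0.32 on the other 11 arrays). Without it, an alternative chosen after seeing the data, 20 member probes were called down and 9 up.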

How the results depend on the processing

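Of 28 called member probes, 28 kept their direction and call with slide as a block and with the stricter filter on dim probes, 27 with quantile normalization, the authors' table, outlier spots kept, the methods' t-test, the replicate block and without control replicate 2, and 25 with scaling on the array median and with no background subtraction. Fewer were kept without slide 2 (26), slide 1 (22) or slide 3 (19), without the filter (20), with the 2 arrays of a slide averaged (15), with spike-in scaling (7) and with normexp (3). Spike-in scaling kept the calls of COL7A1, ITGA2, TNC, CD44, ITGAV A_23_P381992, LAMA3 A_24_P687302 and FN1 A_24_P85539. Normexp kept those of COL7A1, COL16A1 and FN1 A_24_P85539. The replicate block gave 21 member probes down and 10 up, and among the named calls it lost only that of FN1 A_24_P334130.

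The counts were 20 member probes down and 8 up, 16 genes down and 5 up by the brightest probe, 1 probe past 2-fold, 7 probe pairs of unequal change and 1 of these past 2-fold. Spike-in scaling gave 2 probes down and 5 up, 2 genes down and 2 up, and 0 past 2-fold, and 77.1% of all called probes were then up, against 51.5%. The mean signal of the 7 spike-in probes ranged over 0.79 (log2) between arrays. Normexp gave 2 probes down and 1 up, 2 genes down and 0 up, 0 past 2-fold, 1 pair and 0 past 2-fold, and it called 1410 probes up and 1409 down over the array, against 7234 and 6808, with a median difference of -0.098 over all probes. Averaging the 2 arrays of a slide gave 11 probes down and 4 up and 10 genes down and 2 up. That fit had fewer samples and no term for the slide. Array median scaling gave 3 genes up, and slide as a block 8. Without background subtraction 0 probes and 0 pairs passed 2-fold. Without a filter 2 probes (ITGA2 and MMP14) and 2 pairs passed. Without slide 1 it was 0 probes and 0 pairs, without slide 2 it was 2 pairs, and without control replicate 2 it was 0 pairs. Leaving out a slide gave 14 to 19 probes down and 6 to 8 up. Reversed were ITGA6, to 0.090 with spike-in scaling and 0.060 with normexp, and ITGAV A_23_P381992, to -0.28 with normexp. The cause of these changes was not tested.

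The account is limited to 37 of 50 genes: the probes of 12 were too dim for the test, and no probe was matched to COL13A1. For a gene with several probes the calls can differ by probe, and the transcript each probe reads is known here only from its accession. How many cultures lie behind the 6 arrays of a condition was not given in the sources used here.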
